A study of Mus musculus with 8 samples.

Results

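The Sp transcription factor genes are the 9 mouse genes Sp1 to Sp9. They were examined as targets in a map of chromatin carrying KLF13, a Krüppel-like factor. Peaks were taken when the deposited annotation assigned them to one of these gene symbols, which gave 14 of 9506 peaks. At least 1 was assigned to each of the 9 genes, while 33.6% of all protein-coding genes had any assigned peak. For Sp3 and Sp7 the only assigned peak was intergenic. The cells were HT22, an immortalised mouse hippocampal neuronal line, and all of them expressed BirA, a bacterial biotin ligase. All were transfected with the pTO-Klf13Bio plasmid, so that they made KLF13 with a tag that BirA biotinylates, and chromatin was collected 24 h later. The 4 ChSP libraries came from streptavidin precipitation of that chromatin, and the 4 input libraries from the same kind of cells without precipitation. The libraries are numbered in the labels, with no statement of whether each was a culture of its own. Cells without the tagged protein are not among these libraries, so capture of other biotinylated material and KLF13 binding cannot be told apart at any peak.

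Sp proteins and Krüppel-like factors form one family that shares a DNA-binding domain of zinc fingers. Both bind GC boxes and the related CACCC boxes in promoters, and members of the family can compete for the same site. Sp1, Sp3 and Sp4 carry glutamine-rich activation regions and regulate many housekeeping promoters, with Sp4 most abundant in neurons. Sp2 is an atypical member that is recruited largely together with NF-Y. Sp5 to Sp9 are shorter proteins with developmental roles and restricted expression.

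The deposited list gives 1 value per peak over all 8 libraries. The fold is read as the authors' linear ratio of ChSP over input, and each p is theirs as well. The columns that hold them have no names. Their meaning was taken from the values and from the column order of the peak caller. No value per library was available, so the folds carry no replicate error and no difference between them was tested. Read depth is unknown. A peak counted as a promoter peak when the authors' distance to a transcription start site (TSS) was 1 kb or less. Over the whole list, promoter peaks had a median fold of 22.2 (quartiles 16.5 and 30.3, 7599 peaks). Coordinates are on GRCm38.

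Promoter peaks were assigned to 7 of the 9 Sp genes, all but Sp3 and Sp7. Among 21900 protein-coding genes the share with an assigned promoter peak was 30.9%. Peaks overlapping a TSS were assigned to the same 7 of 9 genes, against 25.8% of all protein-coding genes. The count of 9 of 9 with any assigned peak stands beside 33.6% of protein-coding genes. The genes were chosen with results from this list known, so these counts describe them and are not a test.

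The sequences before 4 starts inside a peak, and a short stretch at Sp3, show the range of base composition across the family. Each is from RefSeq on GRCm38.p6 and reads 5′ to 3′ on the strand of the gene. Those of Sp1, Sp4, Sp5 and Sp9 are the 250 bases before the start, and capitals mark the GC box, searched as GGGCGG or its reverse complement CCGCCC. Sp1 and Sp4 were chosen as broadly acting members with several boxes, and Sp5 and Sp9 as developmental members with none and 1. They lie at chr15:102406066-102406315 (plus strand) for Sp1, chr2:72979367-72979396 (minus strand) for the 30 bases at Sp3, chr12:118301441-118301690 (minus strand) for Sp4, chr2:70474673-70474922 (plus strand) for Sp5 and chr2:73271676-73271925 (plus strand) for Sp9.
Sp1: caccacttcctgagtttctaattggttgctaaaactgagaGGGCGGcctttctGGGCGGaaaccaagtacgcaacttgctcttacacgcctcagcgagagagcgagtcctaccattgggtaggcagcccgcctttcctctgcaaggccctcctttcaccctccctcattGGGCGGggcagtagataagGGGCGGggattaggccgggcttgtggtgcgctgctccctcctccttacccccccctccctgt
Sp3: ctcgcCCGCCCctcccCCGCCCcgggagct
Sp4: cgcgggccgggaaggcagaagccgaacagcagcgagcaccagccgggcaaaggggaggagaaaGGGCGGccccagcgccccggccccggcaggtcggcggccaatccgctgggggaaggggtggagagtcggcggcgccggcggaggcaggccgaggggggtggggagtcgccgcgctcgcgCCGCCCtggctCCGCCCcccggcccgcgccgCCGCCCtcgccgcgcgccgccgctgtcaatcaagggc
Sp5: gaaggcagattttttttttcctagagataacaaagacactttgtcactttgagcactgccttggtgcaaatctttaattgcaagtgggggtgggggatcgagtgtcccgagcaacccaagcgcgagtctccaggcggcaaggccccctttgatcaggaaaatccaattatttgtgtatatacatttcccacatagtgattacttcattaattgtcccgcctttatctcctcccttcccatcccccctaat
Sp9: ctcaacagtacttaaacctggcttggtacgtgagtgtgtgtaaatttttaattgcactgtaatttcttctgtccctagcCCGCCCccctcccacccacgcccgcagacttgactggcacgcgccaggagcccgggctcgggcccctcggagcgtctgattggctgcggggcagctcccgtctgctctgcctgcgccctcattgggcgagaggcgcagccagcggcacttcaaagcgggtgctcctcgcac

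Sp1, the founding member of the family, had a single peak with a fold of 52.1 at chr15:102406101-102407100 (the authors' p = 1.07e-24). It was 1000 bp wide and overlapped the only RefSeq start of the gene. Its fold was higher than that of 97.9% of all promoter peaks and ranked 174 in the list of 9506. Sp1 had the highest fold among the peaks assigned to an Sp gene.

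Sp2 had 1 peak with a fold of 45.1 at chr11:96977101-96977800 (the authors' p = 2.68e-22), above 94.5% of promoter peaks. RefSeq gives Sp2 3 starts, and the peak lay over the middle one. The outermost start was 5159 bp from the nearest peak and the innermost 8436 bp. Of the 3 starts, only this internal one had a peak within 1 kb.

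Sp4 had 1 peak with a fold of 30.9 at chr12:118301101-118302400 (the authors' p = 2.60e-22). It was 1300 bp wide, over the single start, and its fold exceeded that of 76.4% of promoter peaks. Its p was close to that of Sp2, with ranks of 1012 and 1016 in the list, although the fold at Sp2 was higher. These peaks were thus nearly equal by p but not by fold.

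Sp3, which encodes an activator or repressor that competes with Sp1 for GC boxes, had no assigned promoter peak. The one peak assigned to it was intergenic, 32.2 kb upstream of its TSS, at chr2:73012601-73012900. That peak had a fold of 8.16 (the authors' p = 2.80e-07), higher than 1.01% of promoter peaks, and ranked 583 of 698 distal intergenic peaks. A much stronger peak lay inside the gene, at chr2:72978501-72980400, with a fold of 54.7 (the authors' p = 1.55e-22). The annotation assigned it to Sp3os, a long noncoding RNA gene on the opposite strand. All 1900 bases of this peak fell within the RefSeq bounds of Sp3. It covered the inner Sp3 start and ended 46 bp short of the outer one, and the Sp3os start lay 151 bp from the inner Sp3 start. The fold was above 98.4% of promoter peaks and higher than any peak assigned to an Sp gene.

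Assignment of each peak to 1 gene set whether Sp3 counted as a gene with a promoter peak. When any peak within 1 kb of a RefSeq start was counted, whichever gene it was assigned to, all 7 Sp genes with starts in the promoter table had one. The share over 17492 protein-coding genes in that table was 32.9%. Of the 5753 genes that had such a peak, 551 (9.58%) lacked an assigned promoter peak, as Sp3 did. Sp6 and Sp7 were not in the promoter table.

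Sp7, which encodes the osteoblast regulator osterix, had 1 assigned peak, 9.63 kb upstream of its TSS at chr15:102376601-102377300. The fold was 31.5 (the authors' p = 1.12e-20), which ranked 57 of 698 distal intergenic peaks, whose median was 17.2. Sp7 and Sp1 are neighbours 39.3 kb apart, and this was the only peak wholly between them, 29.0 kb from Sp1. A peak with a fold of 12.03 lay 703 bp beyond the far end of Sp7 and was assigned to Aaas. No peak overlapped the Sp7 gene itself.

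**Figure D1:**
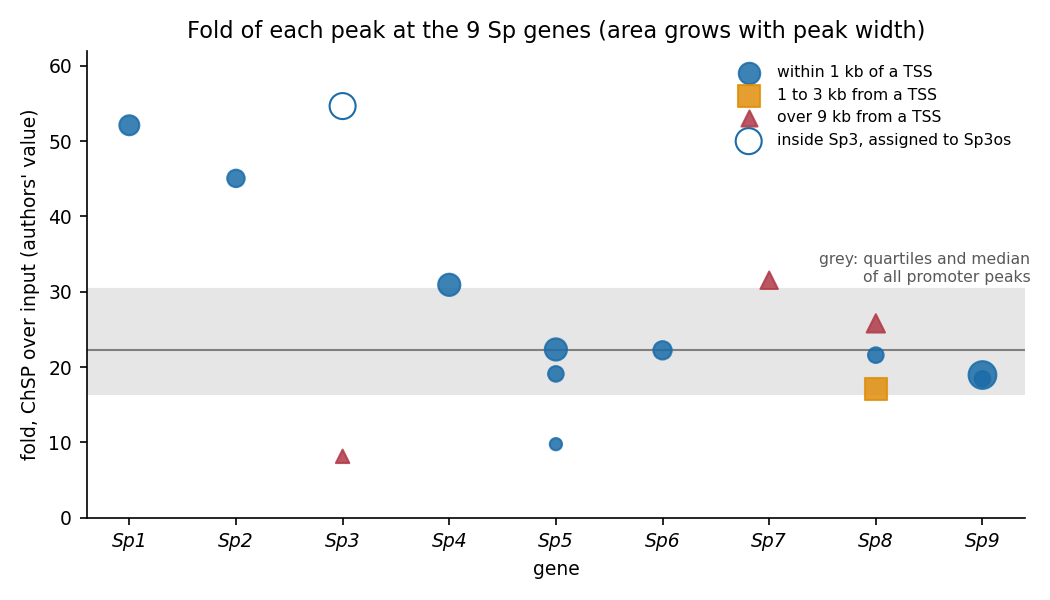
Fold of ChSP over input (vertical axis, the authors' linear ratio) for every peak at each Sp gene (horizontal axis), with marker area growing with peak width, marker shape giving the distance to the TSS and the open circle showing the peak assigned to Sp3os. Promoter folds at Sp1, Sp2 and Sp4 lie above the grey quartile band of all promoter peaks, from 30.9 to 52.1, while those of Sp5, Sp6, Sp8 and Sp9 are at or below 22.4.

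Sp5, Sp6, Sp8 and Sp9 had lower promoter folds. Sp6, known as epiprofin for its role in tooth and hair, had 1 peak with a fold of 22.2 at chr11:97018501-97019300 (the authors' p = 6.46e-17). This equals the median of all promoter peaks to the digits given, and the fold ranked 4250 in the list of 9506. The peak lay 4932 bp inside the outer end of the RefSeq gene, over a TSS internal to it. Sp2 and Sp6 are neighbours 30.6 kb apart, with 0 peaks wholly between them.

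Sp5, a target and feedback regulator of Wnt signalling, had 3 promoter peaks. The fold was 19.1 over its start, at chr2:70474901-70475400 (the authors' p = 9.79e-09). A weaker and narrower one, 323 bp upstream, had a fold of 9.78 (the authors' p = 7.97e-06) and was 200 bp wide. The highest fold, 22.4, was 878 bp downstream of the TSS, in a peak 1300 bp wide (the authors' p = 2.09e-15). The strongest and widest of the 3 lay within the gene rather than over its start.

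Sp9, a regulator of striatal and cortical interneurons and of the limb bud, showed the same layout. A peak over its start at chr2:73271701-73272200 had a fold of 18.5 (the authors' p = 2.28e-08), and a peak 775 bp downstream had a fold of 19.0 (the authors' p = 2.03e-12). These folds were close, but the downstream peak was 2200 bp wide against 500 bp, wider than 99.7% of the list. Only 36.1% of promoter peaks had a lower fold than the stronger of these.

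Sp8, the close relative of Sp9 with roles in limb outgrowth and olfactory bulb interneurons, had 3 assigned peaks. The one over a start, at chr12:118846901-118847400, had a fold of 21.6 (the authors' p = 3.00e-09). A peak 1300 bp wide, 1.21 kb downstream, had a lower fold of 17.1 but a smaller p of 3.24e-11. The highest fold, 25.8 (the authors' p = 1.40e-13), was intergenic, 9.23 kb upstream at chr12:118836301-118837100, ranked 105 of 698 distal intergenic peaks. RefSeq gives Sp8 3 starts, of which the middle one was inside the peak and the others were 572 and 159 bp from the nearest peak. At Sp3, Sp7 and Sp8 the highest assigned fold lay outside the promoter.

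Across the family, the 3 assigned promoter folds of Sp1, Sp2 and Sp4 (30.9 to 52.1) did not overlap the highest ones of Sp5, Sp6, Sp8 and Sp9 (19.0 to 22.4). The peak at Sp3 that was assigned to Sp3os, at 54.7, fell on the side of Sp1, Sp2 and Sp4. This grouping of members was not planned, and it holds for promoter peaks only. The intergenic peak of Sp7, at 31.5, was above the peak of Sp4, and the intergenic peak of Sp8 was at 25.8. Over all protein-coding genes with a promoter peak, the quartiles of the highest promoter fold were 17.1 and 31.1. Sp4, Sp5, Sp6, Sp8 and Sp9 all lay between these quartiles. With 1 value per peak and no replicates the difference between the groups has no test, and genes are not replicates of a class. Over the 7 genes the median of the highest promoter fold was 22.4, against 22.9 over the 6769 protein-coding genes with a promoter peak. The family's median was close to that of all such genes, while single members ranged from 19.0 to 52.1.

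Peaks covered very different parts of the genes. At Sp5 they covered 63.4% of the 2804 bp between the gene's RefSeq ends, and at Sp9 64.4% of 3846 bp. Among genes with a peak and a length within a factor of 2 of that of the gene, the median share covered was 16.0% for the comparison with Sp5 (790 genes) and 12.3% for that with Sp9 (1073 genes). Sp5 exceeded 97.2% and Sp9 99.2% of those genes. Sp8 had 28.6% covered, more than 97.1% of 1539 genes of like length. Sp6 had 7.16%, more than 75.6% of 2142 such genes. At the long genes Sp1, Sp2, Sp3 and Sp4 peaks covered 0.487 to 4.32%, with no comparison by length. The highest of these was Sp3, where all covered bases came from the peak assigned to Sp3os. The peaks at Sp5 spanned 2700 bp with gaps of 300 and 400 bp, and those at Sp9 3200 bp with a gap of 500 bp. Of 6769 genes with a promoter peak, 7.45% had 2 or more, as Sp9 did, and 0.561% had 3 or more, as Sp5 did. The place of Sp5 among genes with 3 or more rests on its 200 bp peak, whose p ranked 9408 of 9506.

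**Figure D2:**
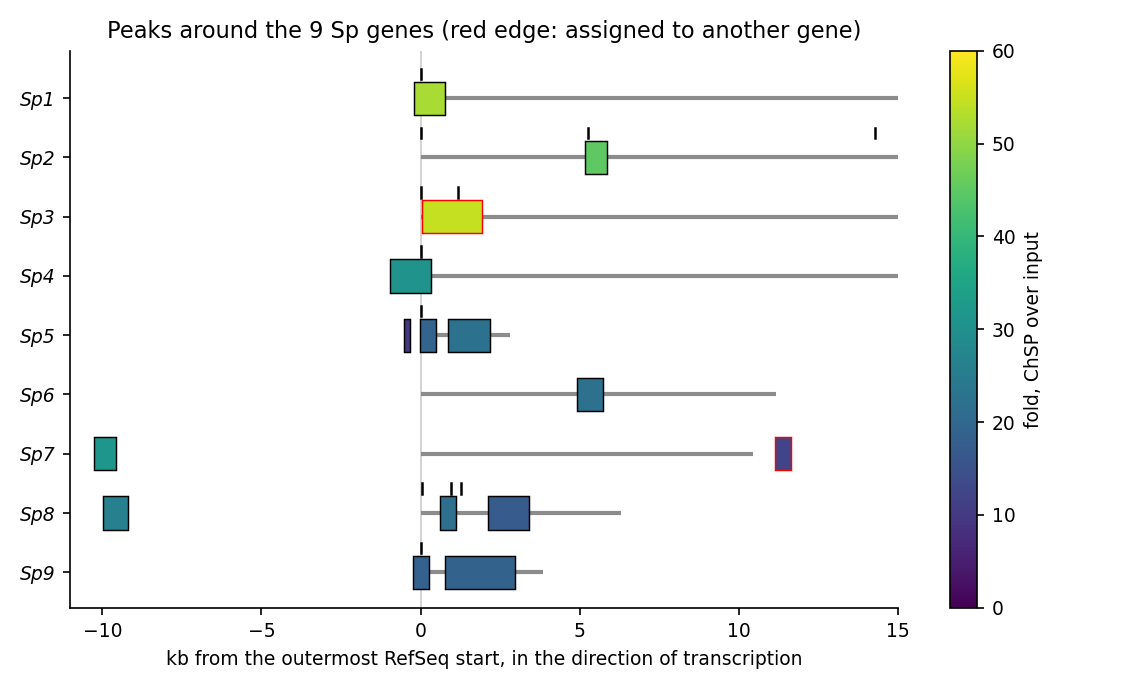
Peaks within 10 kb of each Sp gene (rows), placed by distance in kb from the outermost RefSeq start in the direction of transcription, coloured by fold, with grey lines for the gene, ticks for starts in the promoter table and a red edge where the peak was assigned to another gene. Single peaks mark Sp1, Sp2, Sp4 and Sp6, while Sp5, Sp8 and Sp9 hold runs of peaks across short genes; the peak 32.2 kb upstream of Sp3 lies outside the plot, as do the far ends of the long genes.

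GC boxes were counted in windows from 250 bases before to 50 bases from the start onward. The promoter table held 12 windows for 7 of the Sp genes. Of these, 7 held a GC box, or 58.3%, against 46.2% of the 21263 windows of protein-coding genes. The CCACCC core of the CACCC box, or its reverse complement GGGTGG, occurred in 6 of the 12 Sp windows, against 33.6% of all. The longer form GGGGCGGGG, or CCCCGCCCC, which contains the GC box, occurred in 2 windows (16.7%, against 15.4%), at Sp1 and at the inner start of Sp3.

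Boxes were then counted by whether the start lay inside a peak. Of the 7 Sp starts inside a peak 6 had a GC box, all but Sp5. Of the 5 outside 1 had one, the outer start of Sp3. That start was 46 bp from a peak, which is less than the 100 bp step of the peak edges. Over all protein-coding genes, 84.2% of 5273 windows with the start inside a peak held a GC box and 33.7% of 15990 windows outside did. Base composition moved with this, with a median G+C content of 69.0% inside and 52.8% outside, and 61.7% and 53.3% for the Sp windows. Its part in the difference was not tested.

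The number of boxes differed between the windows. Windows of Sp1 to Sp4 held 18 of the 20 GC boxes, and those of Sp5, Sp8 and Sp9 held 2. The groups have unequal numbers of windows, and no rate per window is given. Over all protein-coding genes the median count was 2 with the start inside a peak and 0 with it outside. Among the Sp starts inside a peak, Sp2 had 2 boxes, Sp8 and Sp9 had 1 each and Sp5 had 0. Sp1 had 4, beginning 210, 197, 81 and 62 bases before the start, and the inner start of Sp3 and the start of Sp4 had 5 each, more than 96.3% of protein-coding windows. Of the 20 boxes 18 lay inside a peak, and the other 2 were at the outer start of Sp3, just beyond the end of the strongest peak. No such share is given for all protein-coding windows, so this count has no background beside it. The windows with the most boxes lay largely inside peaks, with 265 of 300 bases at Sp1 and all 300 at the inner start of Sp3 and at Sp4. The 300-base window of Sp5 had 45.0% G+C and no GC box, and 72 of its bases, at the end nearest the gene, were inside the peak. A match is a description of the letters, and peak edges are no finer than 100 bp.

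**Figure D3:**
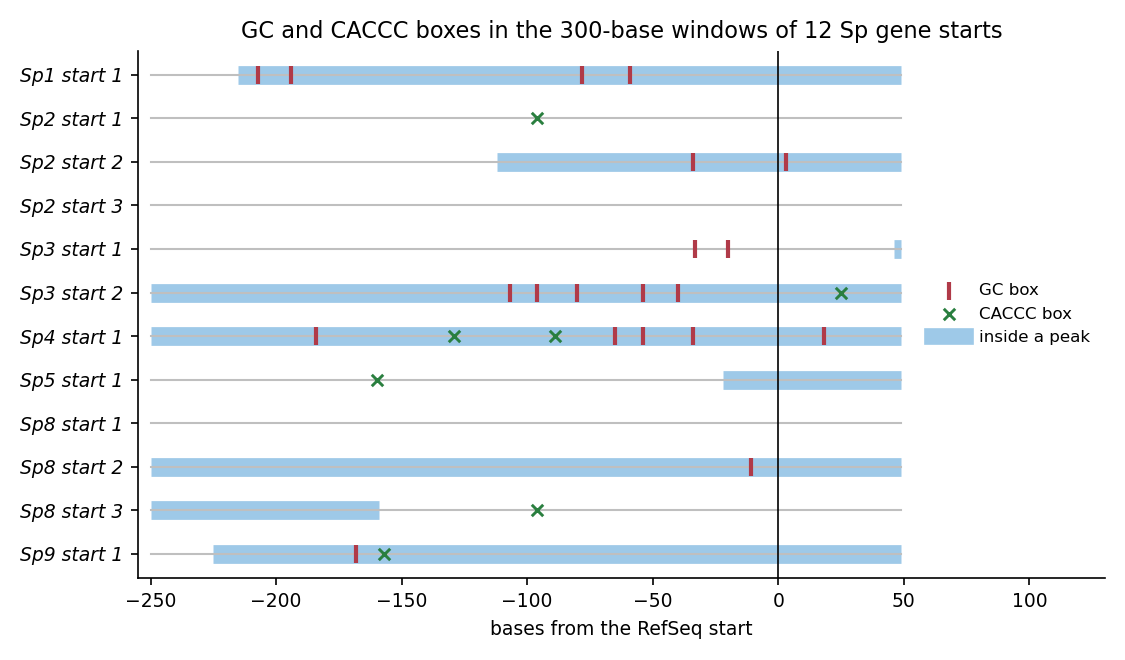
Positions of GC boxes (red bars) and CACCC boxes (green crosses) in the 300-base windows around 12 starts of 7 Sp genes, in bases from the RefSeq start, with the part inside a peak in blue. GC boxes crowd in the windows of Sp1, the inner start of Sp3 and Sp4, with 4, 5 and 5, and the windows whose start lies outside every peak hold 2 GC boxes, both at the outer start of Sp3.

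The other branch of the family had promoter peaks at 13 of 17 genes from Klf1 to Klf17, against the same 30.9% of all genes. Among the 4753 peaks with the smaller p the count was 7, against 18.6% of all genes, and for peaks overlapping the TSS only it was 8, against 25.8%. The median of the highest promoter fold over the 13 genes was 31.1. The highest was 57.7 at Klf16, which was above Sp1, and the lowest 5.70 at Klf13, whose protein the transfected plasmid also encodes. The Klf13 peak was 2300 bp wide with a small p (the authors' p = 6.07e-36), and it is counted among the 13. Whether sequence carried on the plasmid reaches into this peak was not examined. Where it does, reads from the plasmid and from the gene cannot be told apart.

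Genes of 24 partners and modifiers of Sp1 and Sp3 were listed as well. Promoter peaks were assigned to 17 of 24, against 30.9% of all protein-coding genes. Their median highest fold was 27.3, with a range of 9.21 to 59.2, against the median of 22.9 over all genes with a promoter peak. Taf4, the TFIID subunit that contacts the glutamine-rich regions of Sp1, had the highest at 59.2 (the authors' p = 4.78e-29). Yy1, a zinc finger partner of Sp1, had 46.0, and Rb1, the retinoblastoma gene, had 40.9. The acetyltransferase gene Crebbp had 36.1, the cell cycle factor gene E2f1 had 34.8, and Smarca4, a chromatin remodeller subunit, had 33.3. The genes of NF-Y, with which Sp2 is recruited, were picked out after their values were seen, and had folds of 13.1 at Nfya, 26.6 at Nfyb and 13.4 at Nfyc. No promoter peak was assigned to Taf7, Tbp, Med1 or Med23, and the starts of Tbp and Med1 in the promoter table had no peak within 1 kb.

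**Figure D4:**
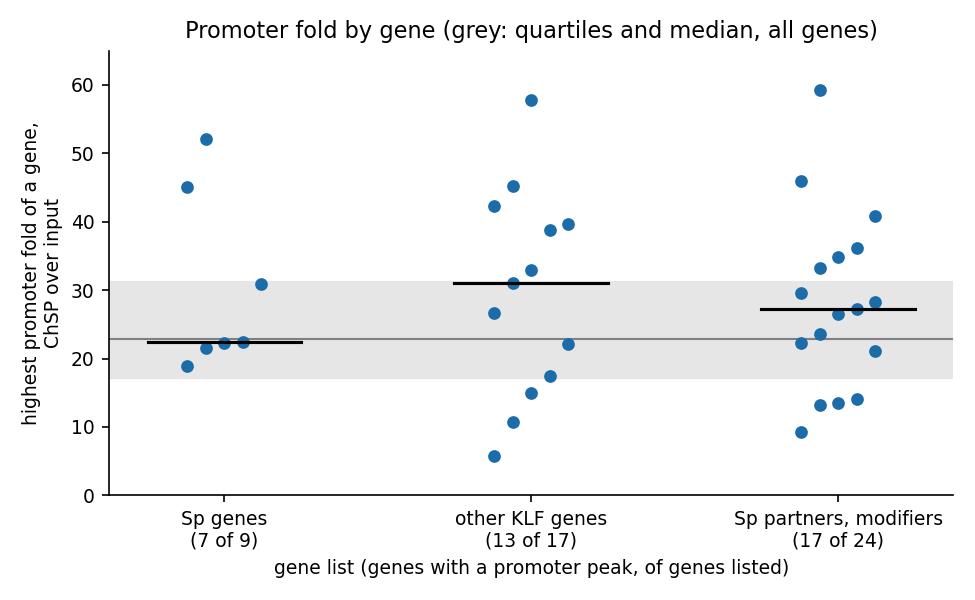
Highest promoter fold of each gene with a promoter peak (points, ChSP over input) for the Sp genes, the other KLF genes and the partners and modifiers of Sp factors, with a black bar at the median of each list and the grey band at the quartiles of all protein-coding genes with a promoter peak. The medians are 22.4, 31.1 and 27.3, and the points of each list reach from below the band's median of 22.9 to above 50.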

How the data were processed

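Per the submitters' processing notes, FastQC 0.11.3, BWA 0.7.17-r1188, ChIPseeker 1.16.1 and HOMER 4.9.1 were used with the GRCm38 build, and no role is given for each. The deposited list's name gives PePr as the peak caller, over 4 ChSP and 4 input libraries together, with settings not given in the sources used here. From these libraries the authors computed a fold per peak, a linear ratio of ChSP over input whose scaling is not stated, and a p-value per peak with its adjusted form. The highest p in the list is 9.99e-06. A deposited score, proportional to the fold, was left aside. Peak width (in steps of 100 bp), the distance to the TSS and the assigned gene are the authors' values, per the file headers.

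Peaks were matched to the 9 genes by symbol, and other genes by gene identifier to a RefSeq gene table on GRCm38.p6. The promoter table held 7 of the 9 Sp genes, 13 of 17 KLF genes and 18 of 24 partner genes. Sp6 and Sp7 are named without a sequence. The members, lists and motifs were chosen with earlier results of these data known. Named genes were all 9 Sp genes with every peak, genes assigned to peaks within 10 kb of them, Klf13 with the highest and lowest KLF genes, and the 6 highest partner genes with up to 4 lacking a promoter peak. The NF-Y genes were named after their values were seen, and the 5 sequences shown were picked after the boxes were counted. No test was run, since no value per library was available. A planned comparison of protein sequences was not run. Interval and motif searches were tested on simulated data. The tools were matplotlib 3.10.9, scipy 1.17.1, numpy 2.4.6 and pandas 2.3.3 in Python 3.11.15.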

Additional observations from a re-analysis of the deposited data

How the results depend on the processing

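No paired analysis was possible because each peak has a single value for the 8 libraries together, and for the same reason no library could be left out. The count of Sp genes with a promoter peak was 7 of 9 in the main setting. It was 6 or 7 under the other settings that cover all 9 genes and limit the distance to a TSS or gene end. With any assigned peak, intergenic ones included, 9 of 9 genes were counted. By RefSeq starts, where Sp6 and Sp7 have no entry, the count was 7 of 7. It was 6 among the 4753 peaks with the smaller p, which dropped Sp8, and 6 among the 4753 with the higher fold, which dropped Sp9. Within 1 kb of either gene end it was 7, with Sp3 and Sp7 in place of Sp2 and Sp6. The share of all genes was 18.6% with the smaller-p peaks, 18.0% with the higher-fold peaks, 31.6% within 3 kb of a TSS, 25.8% for peaks overlapping the TSS only, 33.6% with any assigned peak, 31.8% at either gene end, 29.3% without the 5% widest peaks, and 32.9% by RefSeq starts, which was chosen after seeing the data. The count of KLF genes was 7 with the smaller-p peaks and 8 for peaks overlapping the TSS only. The median Sp fold was 22.2 with the mean of a gene's promoter peaks and for peaks overlapping the TSS only. It was 26.6 with the smaller-p peaks, and 26.6 with the Sp3os peak counted for Sp3, also chosen after seeing the data. The longer GC box was in 2 windows. The partner list stayed between 12 and 17 of 24. Fewer peaks are left by construction with a threshold on p or fold, and the cause of the other changes was not tested. Unknown read depth limits what the lack of a peak shows: none was called there.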
